A study of Saccharomyces cerevisiae with 16 samples.

Results

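Budding yeast (Saccharomyces cerevisiae) of a mutant strain and of its reference strain was compared under nitrogen limitation with ethanol as the carbon source, a condition abbreviated N-Lim (Eth). The comparison used every array of the series that carried this label, which was 4 of 16 arrays, with 2 of strain SCE088 (mutant) and 2 of strain SCE090 (reference). All 5716 probe sets of the array entered it. The cells of both strains were grown to a steady state in a chemostat, with ammonium sulfate as the limiting nitrogen source, and total RNA was measured. The other 12 arrays hold both strains under ethanol limitation (Eth-Lim), nitrogen limitation on glucose, N-Lim (Glu), and glucose limitation (Glu-Lim), again with 2 arrays in each group. The labels do not name the mutated gene and do not say whether a strain is 1 clone. They also do not tell whether both arrays of a group had a culture each, and a p-value here therefore describes no more than array-to-array spread, possibly a technical one.

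Yeast that lives on ethanol oxidizes it to acetate and acetyl-CoA, respires, and makes sugar phosphates by the glyoxylate cycle and gluconeogenesis. Acetyl-CoA is also the substrate of acetyl-CoA carboxylase, a biotin enzyme that makes malonyl-CoA for fatty acid synthesis, with Acc1 in the cytosol and Hfa1 in mitochondria. Cells that are short of nitrogen but have carbon in excess tend to store carbohydrate, and slow growth is known for higher expression of the general stress genes under Msn2 and Msn4 and lower expression of the ribosome genes.

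Each value is a normalized intensity per probe set on a linear scale, and differences are on the log2 scale as mutant minus reference, so that 1 stands for a doubling. The 2 mutant arrays had a median absolute log2 difference of 0.046 from each other, and the 2 reference arrays one of 0.097. The median log2 intensity was 11.95 and 11.91 on the mutant arrays and 11.99 and 11.97 on the reference arrays. The symbols of 5498 probe sets name 5449 genes, and 218 probe sets have none.

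In total 902 probe sets differed between the strains (limma over all 16 arrays, Benjamini-Hochberg adjusted p under 0.05), which is 15.8% of those tested. Of these, 323 (5.65%) were higher in the mutant and 579 (10.1%) were lower. Most differences were small. The median was 0.26 among the higher probe sets and -0.32 among the lower ones, and 283 and 439 of them stayed under 0.5. A log2 difference of at least 1 was reached by 3 higher probe sets (0.0525% of all tested) and by 34 lower ones (0.595%). The balance between higher and lower depended on the scaling of the arrays. The median difference over all probe sets was -0.02 with the deposited values and 0.02 after quantile normalization or median centring of each array, and these alternatives gave 540 higher and 403 lower, and 529 higher and 412 lower. The totals also depended on single arrays, with 459 calls without mutant replicate 1, 365 without mutant replicate 2, 410 without reference replicate 1 and 722 without reference replicate 2. The plot of difference against intensity shows large falls over the whole range of intensity. With the dimmest 25% of probe sets left out, 18 of the falls of at least 1 were counted in place of 34.

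**Figure D1:**
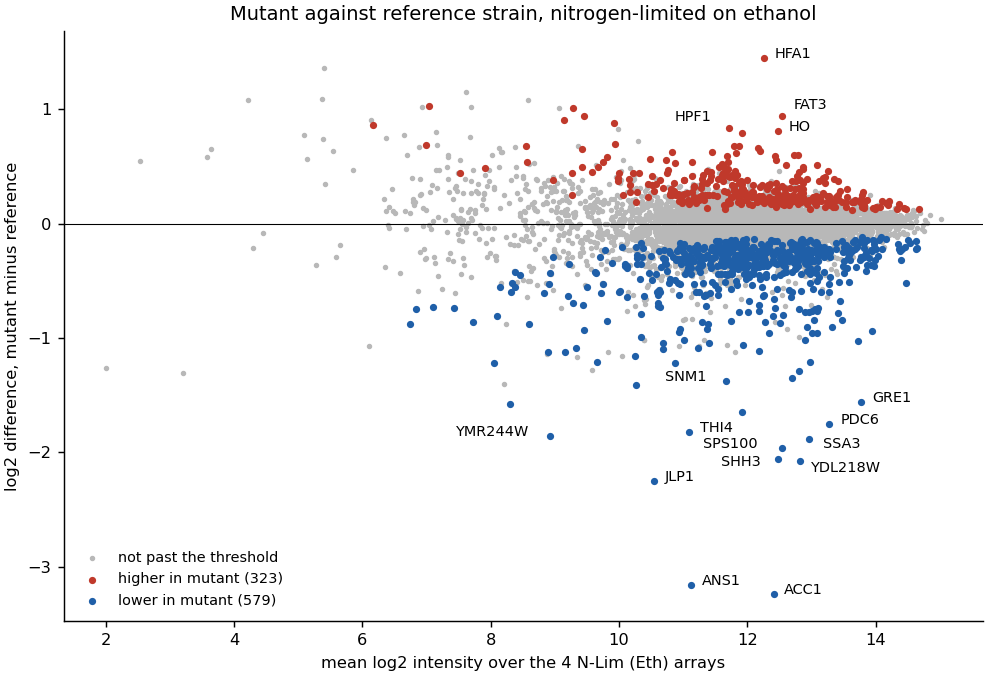
Log2 difference between mutant and reference strain (y) against the mean log2 intensity over the 4 N-Lim (Eth) arrays (x), 1 point per probe set, with probe sets past the threshold in colour. ACC1 and ANS1 lie lowest at -3.24 and -3.16, and HFA1 lies highest of the coloured points at 1.45.

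ACC1 had the largest fall of the comparison. Its intensity was 1733 and 1811 on the mutant arrays, against 16794 and 16587 on the reference arrays. The mutant was thus 9.42-fold lower, a log2 difference of -3.24 ± 0.04 (SE, n = 2 arrays a strain, adjusted p = 6.4e-12). HFA1, the mitochondrial acetyl-CoA carboxylase, moved the other way and led the rises. It had 8037 and 8180 in the mutant, against 2835 and 3120 in the reference strain, which was 2.73-fold higher (log2 difference 1.45 ± 0.08, adjusted p = 9.8e-07). The groups of arrays were far apart for both genes. Both strain differences were present in the other 3 conditions as well, with -3.47, -3.34 and -3.24 for ACC1 and 1.45, 1.53 and 2.03 for HFA1 in Eth-Lim, N-Lim (Glu) and Glu-Lim. Related genes such as these can share signal on an array. The genes on either side of ACC1, SMM1 and TIM23, gave -0.04 (adjusted p = 0.89) and 0.12 (adjusted p = 0.29). Those on either side of HFA1, YMR206W and ERG12, gave -0.42 (adjusted p = 0.01) and -0.07 (adjusted p = 0.7). The call of YMR206W was lost on the compared arrays alone and with the replicate block.

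ANS1 came next, with 746 and 747 in the mutant and 6767 and 6622 in the reference strain. Its log2 difference of -3.16 ± 0.08 (adjusted p = 3.3e-09) was close in size to that of ACC1. JLP1, a dioxygenase that lets cells use sulfonates as a sulfur source, had 669 and 702 in the mutant and 3235 and 3300 in the reference strain (-2.25 ± 0.09, adjusted p = 1.2e-07). THI4, the enzyme that makes the thiazole part of thiamine, had 1163 and 1165 in the mutant and 3907 and 4336 in the reference strain (-1.82 ± 0.10, adjusted p = 1.6e-06). For each of the 3 genes every mutant array was below every reference array by a factor of 3 or more. YDL218W (-2.08), SPS100 (-1.96), YMR244W (-1.86) and SHH3 (-2.06) fell by as much. SPS100 encodes a protein of the spore wall, and SHH3 and SHH4 (-1.21) are relatives of membrane subunits of succinate dehydrogenase.

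Among the next falls OYE3, an NADPH oxidoreductase, fell by 1.41 on the log2 scale, GND2, the minor isozyme of 6-phosphogluconate dehydrogenase, by 1.35, and GTO3, a glutathione transferase, by 1.21. CRF1, a corepressor of ribosomal protein genes, had -1.22, as did HMS1, a transcription factor, and SET4 had -1.12. TIS11, whose product helps to degrade mRNAs of iron-using proteins when iron is short, had 386 and 389 in the mutant and 849 and 840 in the reference strain, a difference of -1.12 (adjusted p = 5.9e-07). BTN2, which sorts misfolded proteins, had -1.11 and CRR1, a spore wall enzyme, -1.16. The 30 leading falls were chosen to have arrays that did not overlap, which was so for 60.7% of all probe sets.

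Rises were smaller. After HFA1, FAT3, needed for fatty acid uptake, had 8186 and 8420 in the mutant, against 4424 and 4205 in the reference strain (log2 difference 0.94 ± 0.07, adjusted p = 1.1e-05). HPF1, a mannoprotein, had 4345 and 4664 in the mutant and 2471 and 2567 in the reference strain (0.84 ± 0.05, adjusted p = 1.5e-06). HO, the mating type switching endonuclease, had 7516 and 7664 in the mutant and 4176 and 4456 in the reference strain (0.81 ± 0.12, adjusted p = 0.0012). The 2 strains were clearly apart in these 3 genes. GLO4, a mitochondrial glyoxalase, rose by 0.79, MUP1, the high-affinity methionine permease, by 0.68, and YHP1, a cell cycle repressor, by 0.68. Of the leading 15 rises, 5 were less firm, all with intensities of 1000 or less. HEM3 (0.94), YBR090C (1.03), SWC7 (0.86), YBR182C-A (0.69) and ENT4 (0.65) had adjusted p between 0.011 and 0.049, and each lost its call without mutant replicate 1 and also without reference replicate 1. HEM3, an enzyme of heme synthesis, had 1000 and 942 in the mutant and 431 and 598 in the reference strain.

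**Figure D2:**
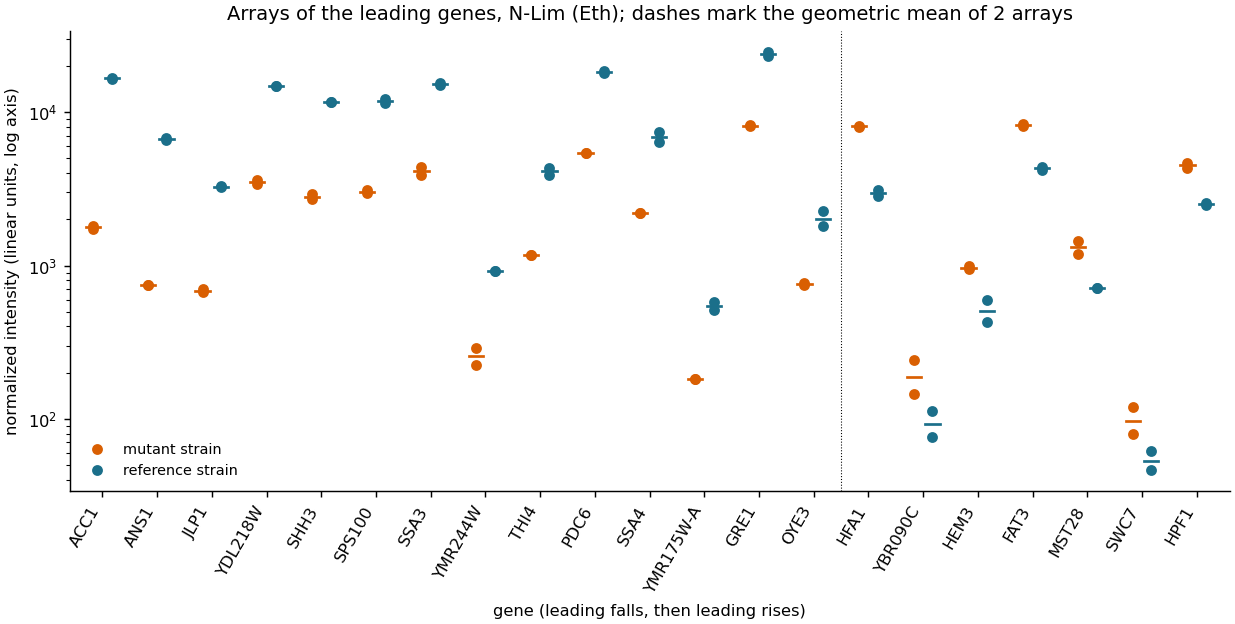
Normalized intensity of each array on a log axis for the 14 leading falls (left of the dotted line) and 7 leading rises (right), with the mutant strain left of the reference strain for each gene and a dash at the geometric mean. The ACC1 points of the mutant lie at 1733 and 1811 and those of the reference strain at 16794 and 16587, whereas SWC7 lies at 119 or less on all arrays.

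Most genes of the general stress response were lower in the mutant. Of 36 measured genes of a list of heat shock, oxidative and osmotic stress genes, 25 were lower in the mutant and none was higher, a share of 69.4% beside the 10.1% over all probe sets. The median difference of the list was -0.29 beside -0.02, and 35 of 36 differences were negative. Chaperones of the Hsp70 family led it. SSA3 had 4399 and 3899 in the mutant, against 15048 and 15546 in the reference strain (-1.88 ± 0.07, adjusted p = 5.3e-08), and SSA4 had 2192 and 2197 in the mutant, against 6356 and 7448 in the reference strain (-1.65 ± 0.11, adjusted p = 6.3e-06). GRE1, a hydrophilin of dehydration stress, fell by 1.56, and CTT1, the cytosolic catalase, had 4480 and 4645 in the mutant and 11254 and 11016 in the reference strain (-1.29). SPI1, a cell wall protein of stationary cells, fell by 1.09. Arrays of the strains did not overlap at any of the 579 lower probe sets, these 5 genes included. The absence of overlap therefore adds nothing to their calls. Of all probe sets 60.7% did not overlap.

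The other 11 stress genes did not pass, and the genes named from them here were chosen after their values were seen. GPX2 had -0.48 (adjusted p = 0.18). HSP12 and DDR2, which are classical targets of Msn2 and Msn4, had 0.02 and -0.06 and lay near the top of the intensity range, with 25406 and 25445 for HSP12 in the mutant and 25069 and 24923 in the reference strain. MSN2 and MSN4 themselves gave -0.06 and -0.16, neither past the threshold. Leaving out each array in turn left 20 to 24 of the stress genes lower, and a fit on the 4 arrays alone left 12. The plot of the stress genes shows that the 25 falls were unequal, with 7 of them beyond -1.

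**Figure D3:**
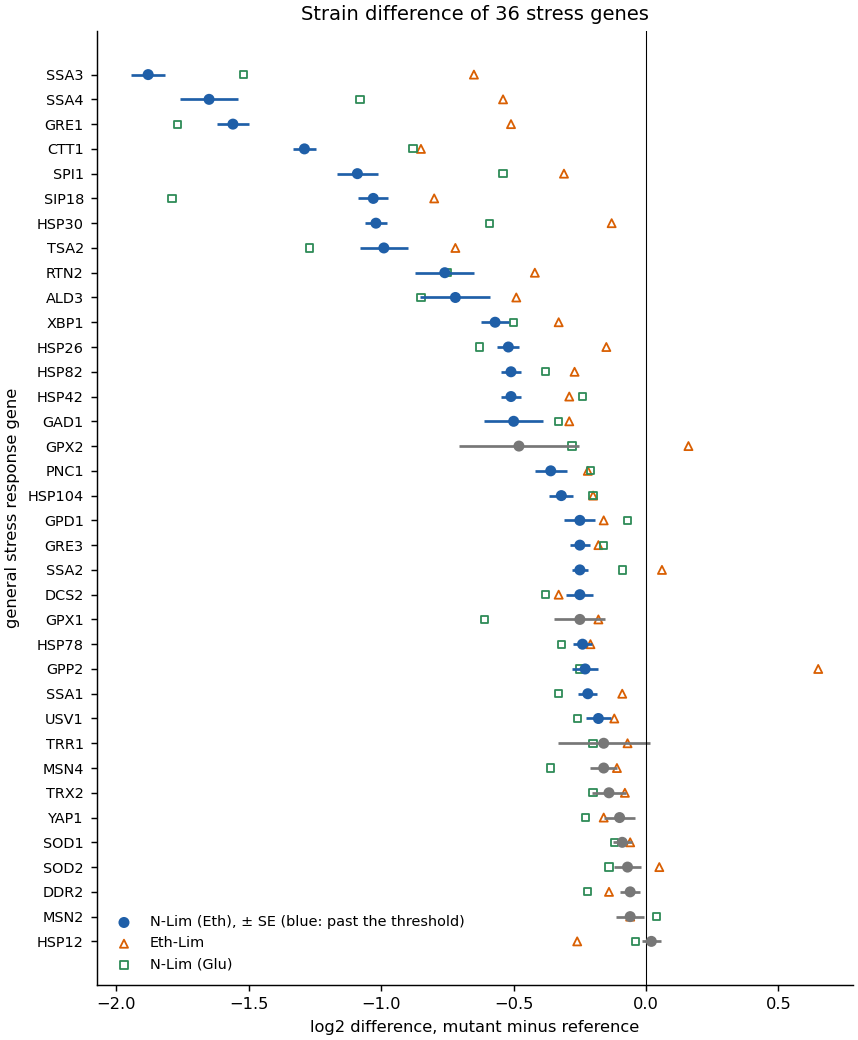
Log2 difference between mutant and reference strain (x) for the 36 genes of the stress list (y), as filled circles with the SE for N-Lim (Eth), and as open triangles for Eth-Lim and open squares for N-Lim (Glu). From SSA3 at -1.88 to HSP12 at 0.02, all but HSP12 lie left of 0 in N-Lim (Eth).

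Genes of glycolysis and fermentation fell in number but mostly by little. Of 26 measured, 13 were lower and none higher, with a median of -0.12. Among all probe sets 10.1% were lower and 5.65% higher, with a median of -0.02. Without 1 array 8 to 10 of the 26 were lower, with the fewest when mutant replicate 2 was left out. The largest falls were in isozymes and regulators rather than in the main enzymes. PDC6, the minor pyruvate decarboxylase, had 5425 and 5398 in the mutant and 18587 and 17949 in the reference strain (-1.75 ± 0.08, adjusted p = 4.1e-07). TDH1, the glyceraldehyde-3-phosphate dehydrogenase isozyme of resting cells, had 11623 and 11056 in the mutant and 21617 and 21901 in the reference strain (-0.94 ± 0.04, adjusted p = 3.5e-07). HXK1, the hexokinase that is repressed by glucose, fell by 0.78, and GCR1 and GCR2, activators of glycolytic genes, by 0.63 and 0.38. GCR2 lost its call without mutant replicate 1 or 2 or reference replicate 1. The other 8 lower genes lay between -0.34 and -0.14.

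Storage carbohydrate genes had 9 of 20 lower (45.0%, beside 10.1% of all probe sets) and none higher, with a median of -0.16. PIG2, a regulatory subunit of the phosphatase that activates glycogen synthase, had 2379 and 2464 in the mutant and 3727 and 3700 in the reference strain (-0.62, adjusted p = 0.00082). TSL1, a subunit of trehalose synthase, and GSY1, a glycogen synthase, had -0.26 and -0.24. Autophagy genes had 10 of 30 lower (33.3%) and none higher (median -0.21). They were led by ATG23 at -0.58 and ATG36, a pexophagy receptor, at -0.38. Both counts were sensitive. After quantile normalization or median centring they were 5 and 4. Without mutant replicate 1, mutant replicate 2, reference replicate 1 or reference replicate 2 in turn the storage count was 5, 3, 4 or 8 and the autophagy count 2, 2, 2 or 7. The 2 mutant arrays of ATG23 had 1365 and 1219, against 2062 and 1812 in the reference strain.

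In lipid metabolism the changes outside ACC1 and HFA1 were modest and went both ways. Of 26 genes for fatty acid synthesis, elongation, desaturation and activation, 5 were higher and 5 lower. Each share was 19.2%, beside 5.65% higher and 10.1% lower over all probe sets. FAA1, the main acyl-CoA synthetase for imported fatty acids, had 10744 and 11115 in the mutant and 8375 and 8103 in the reference strain (0.41 ± 0.03, adjusted p = 2.8e-05), and FAA3 rose by 0.36. FAA2, the peroxisomal acyl-CoA synthetase, had -0.32 (adjusted p = 0.032). The elongase ELO2 (0.20) and the dehydratase PHS1 (0.21) were higher, and the desaturase OLE1 (-0.22), the synthase subunit FAS1 (-0.13) and PPT2, which activates the mitochondrial acyl carrier protein (-0.23), were lower. FAS2, at -0.18, did not pass (adjusted p = 0.053). Without mutant replicate 1, mutant replicate 2 or reference replicate 1 the list had 1 gene lower, ACC1, and 3 higher.

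Of 29 phospholipid genes under Ino2, Ino4 and Opi1, 2 were higher (6.9%) and 3 lower (10.3%), near the 5.65% and 10.1% of all probe sets. INO1, the inositol-3-phosphate synthase, had 6807 and 6556 in the mutant and 11252 and 11427 in the reference strain, a difference of -0.76 ± 0.05 (adjusted p = 3.9e-06). Its regulators INO2, INO4 and OPI1 had 0.27, -0.23 and 0.08, none past the threshold. EKI1 (-0.21) and OPI3 (-0.14) were lower, and the acyltransferases SLC1 (0.25) and GPT2 (0.20) were higher, but both higher calls and that of OPI3 were lost without any 1 of the 4 arrays, and that of EKI1 without any but reference replicate 2. INO1 kept its call in each of these fits. Ergosterol synthesis had 3 of 28 genes lower (ERG3, ERG5 and ERG25, between -0.30 and -0.18) and ERG4 higher at 0.24. These shares, 10.7% lower and 3.57% higher, were also near those of all probe sets. A few genes of these lists differed more between replicates than between strains. HTD2, a mitochondrial fatty acid synthesis enzyme, had 5192 and 3054 in the mutant and 2849 and 5634 in the reference strain, and PSD1, a phosphatidylserine decarboxylase, had 12950 and 9118 in the mutant and 9206 and 11937 in the reference strain.

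Peroxisomal beta-oxidation and the carnitine shuttle were split, with 4 of 22 genes higher and 4 lower (18.2% each). Over all probe sets the shares were 5.65% and 10.1%. PXA1, a subunit of the peroxisomal fatty acid importer, had 6181 and 6275 in the mutant and 5316 and 5070 in the reference strain (0.26, adjusted p = 0.0067). DCI1, a peroxisomal isomerase, was higher by 0.44 and AGP2, a carnitine transporter, by 0.37. The activator OAF1 was lower at -0.36 (adjusted p = 0.048), PXA2 at -0.32 and the thioesterase TES1 at -0.26. The lower calls were less firm than the higher ones. After quantile normalization 4 genes were higher and 1 lower. Without mutant replicate 1, mutant replicate 2, reference replicate 1 or reference replicate 2 in turn 2, 1, 3 or 3 were higher and 1, 0, 1 or 2 lower.

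Genes of respiration leaned upward. Of 40 genes for the respiratory chain, ATP synthase and their activators 10 were higher and 3 were lower, beside 5.65% higher of all probe sets. HAP4, the activating subunit of the HAP complex, had 9967 and 10302 in the mutant and 7691 and 7990 in the reference strain (0.37 ± 0.06, adjusted p = 0.0025), and CYT1, cytochrome c1, had 0.30. The 3 lower genes were COX5B (-0.63), CYC7 (-0.34), both isoforms known from low oxygen, and NDE2 (-0.33), an external NADH dehydrogenase. The median of the list was 0.07. Without mutant replicate 1 or mutant replicate 2 it had 2 genes higher, without reference replicate 1 it had 3, and without reference replicate 2 it had 5. Of 16 TCA cycle genes 4 were higher, led by CIT3, a mitochondrial citrate and methylcitrate synthase, with 8703 and 9146 in the mutant and 6220 and 6421 in the reference strain (0.50 ± 0.08, adjusted p = 0.0026). LSC1 (0.19), LSC2 and MDH1 (0.15 each) were the others. The list had 2 genes higher without reference replicate 2 and 1 without any other array.

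The enzymes of ethanol use and gluconeogenesis hardly differed. The median was 0.07 and none of the 23 genes was lower. MDH2 (0.13) and the dicarboxylate carrier DIC1 (0.21) were the higher ones, 8.7% beside 5.65% of all probe sets. Neither was called without mutant replicate 1, mutant replicate 2 or reference replicate 1. MDH2 had 23835 and 23736 in the mutant, against 21716 and 21798 in the reference strain, a difference that was small beside those of the stress genes. For ADH2, ICL1 and PCK1, named after their values were seen as key enzymes of this route, the differences of 0.12, 0.08 and 0.04 did not pass the threshold.

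For the machinery of protein synthesis the shifts were slight. Mitochondrial ribosomal proteins had a median of 0.10, with MRPL11 (0.41) and MRPL20 (0.40) at the top. Of 66 genes 9 were higher (13.6%, beside 5.65% of all probe sets) and none lower. Leaving out mutant replicate 1 gave 2 of them, and mutant replicate 2 or reference replicate 1 gave 0. Quantile normalization gave 17. Ribosome biogenesis had 5 of 73 higher and none lower, a share of 6.85% near that of all probe sets, with NOP14 at 0.45 in the lead. Quantile normalization gave 13 higher, and 1 or 2 were higher without any 1 array. NOP14, a factor of the small subunit processome, had 3197 and 3312 in the mutant and 2340 and 2422 in the reference strain. Cytosolic ribosomal proteins had 7 of 148 probe sets higher and 2 lower, with 2, 1, 1 or 3 higher without mutant replicate 1, mutant replicate 2, reference replicate 1 or reference replicate 2, and 2 with the replicate block. Of 31 cell cycle probe sets 6 were higher (19.4%, beside 5.65% of all probe sets). Another 3 were lower, a share of 9.68% near the 10.1% of all probe sets. The G1 cyclins CLN3 (4243 and 4321 in the mutant, 3219 and 3124 in the reference strain, log2 difference 0.43) and CLN1 (0.34) were among the higher ones. The ribonucleotide reductase genes RNR3 (-0.92) and RNR2 (-0.37) were among the lower ones. HUG1, an inhibitor of that enzyme, fell by 0.93 and was named after its values were seen.

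The list of nitrogen catabolite repression held 38 genes, with 8 higher (21.1%), 7 lower (18.4%) and a median of 0.01. Over all probe sets 5.65% were higher and 10.1% lower. The allantoin genes DAL1 (0.43), DAL3 (0.39) and DAL4 (0.48) were among the higher ones. DAL1 lost its call without mutant replicate 1, mutant replicate 2 or reference replicate 2, DAL3 without mutant replicate 2 or reference replicate 1, and DAL4 without reference replicate 1. DAL4, the allantoin permease, had 9001 and 8707 in the mutant and 5918 and 6769 in the reference strain. UGA4 (-0.92), the GABA permease, and UGA2 (-0.39), an enzyme of GABA use, were among the lower ones. UGA4 had 1923 and 1920 in the mutant and 4207 and 3158 in the reference strain, and its call was lost without either mutant array or reference replicate 1. The list had 3 genes higher and 6 lower without mutant replicate 1, 1 and 4 without mutant replicate 2 or reference replicate 1, and 5 and 8 without reference replicate 2. Named after their values were seen, the permeases GAP1 and MEP2 gave 0.00 and 0.01.

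Of 34 genes for iron uptake and iron saving 8 were higher (23.5%) and 2 lower (5.88%), with a median near 0. The shares over all probe sets were 5.65% and 10.1%. VHT1, the biotin permease, had 8270 and 8339 in the mutant and 5255 and 5741 in the reference strain (0.60 ± 0.07, adjusted p = 0.00049), and BIO5, which imports a biotin precursor, had 2127 and 2032 in the mutant and 1390 and 1427 in the reference strain (0.56 ± 0.06, adjusted p = 0.00029). FET3, the iron oxidase of high-affinity uptake, had 6842 and 6714 in the mutant and 4583 and 4635 in the reference strain (0.56 ± 0.06, adjusted p = 0.00011). As at each of the 323 higher probe sets, the mutant arrays lay above the reference arrays, which adds nothing to these calls. Of all probe sets 60.7% did not overlap. The siderophore transporter SIT1 was higher by 0.32, and TIS11 was the largest fall of the list. Between 3 and 4 genes were higher when an array was left out.

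Among 31 genes for sulfate assimilation and methionine, MUP1 stood alone in size. It had 4824 and 4682 in the mutant and 2982 and 2969 in the reference strain (adjusted p = 0.00014). JLP1, described above, is not on this list. The S-adenosylmethionine synthetase SAM1 (0.19) and SAM4 (0.28) were also higher. MET8 (-0.35) and MET30 (-0.23), a ubiquitin ligase subunit that restrains the pathway, were lower. Thus 3 of 31 genes were higher (9.68%) and 2 lower (6.45%), beside 5.65% and 10.1% of all probe sets. The median of the list was -0.02, as over all probe sets. Of 24 drug efflux probe sets 4 were higher (16.7%) and 7 lower (29.2%), beside 5.65% and 10.1% of all probe sets. TPO1, a polyamine exporter, had 0.45 and RSB1 0.63, while AQR1 had -0.61 and ICT1 -0.44. Without mutant replicate 1, mutant replicate 2, reference replicate 1 or reference replicate 2 the efflux list had 3, 2, 4 or 2 higher and 4, 1, 2 or 4 lower. Among 43 cell wall genes 3 were higher (6.98%) and 5 lower (11.6%), near the shares over all probe sets. SPS100, at -1.96, was the largest fall of this list. PIR3 was lower by 0.96, with 6194 and 6286 in the mutant and 12006 and 12346 in the reference strain. PST1 (-0.39) and GSC2 (-0.32) were lower, and TIP1 (0.22) was higher.

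The plot of the list shares shows how far each stood from all probe sets, of which 5.65% were higher and 10.1% lower. Hexose transport (7.69% higher, 11.5% lower) and phosphate starvation (4.17% and 12.5%) lay near these shares. Amino acid biosynthesis had 6.78% higher and 3.39% lower. Of the other lists, hexose transport had 2 of 26 probe sets higher and 3 lower, amino acid biosynthesis 4 of 59 and 2, phosphate starvation 1 of 24 and 3, and zinc and copper 0 of 17 and 3. Without mutant replicate 1, mutant replicate 2, reference replicate 1 or reference replicate 2 in turn, the lower counts were 3, 1, 1 or 4 for hexose transport, 0, 1, 1 or 1 for phosphate starvation and 0, 0, 0 or 1 for amino acid biosynthesis, whose higher count was 2, 1, 1 or 4. The proteasome had 0 of 34 higher and 2 lower, sporulation and meiosis 0 of 23 and 4, and pyrimidine and purine synthesis 0 of 24 and 2. The PAU family had 1 of 11 probe sets lower (PAU24, -0.53), although all 11 differences were negative, and 4 were lower without reference replicate 2. The haploid and pheromone list had 1 of 14 higher, HO, and 2 lower.

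**Figure D4:**
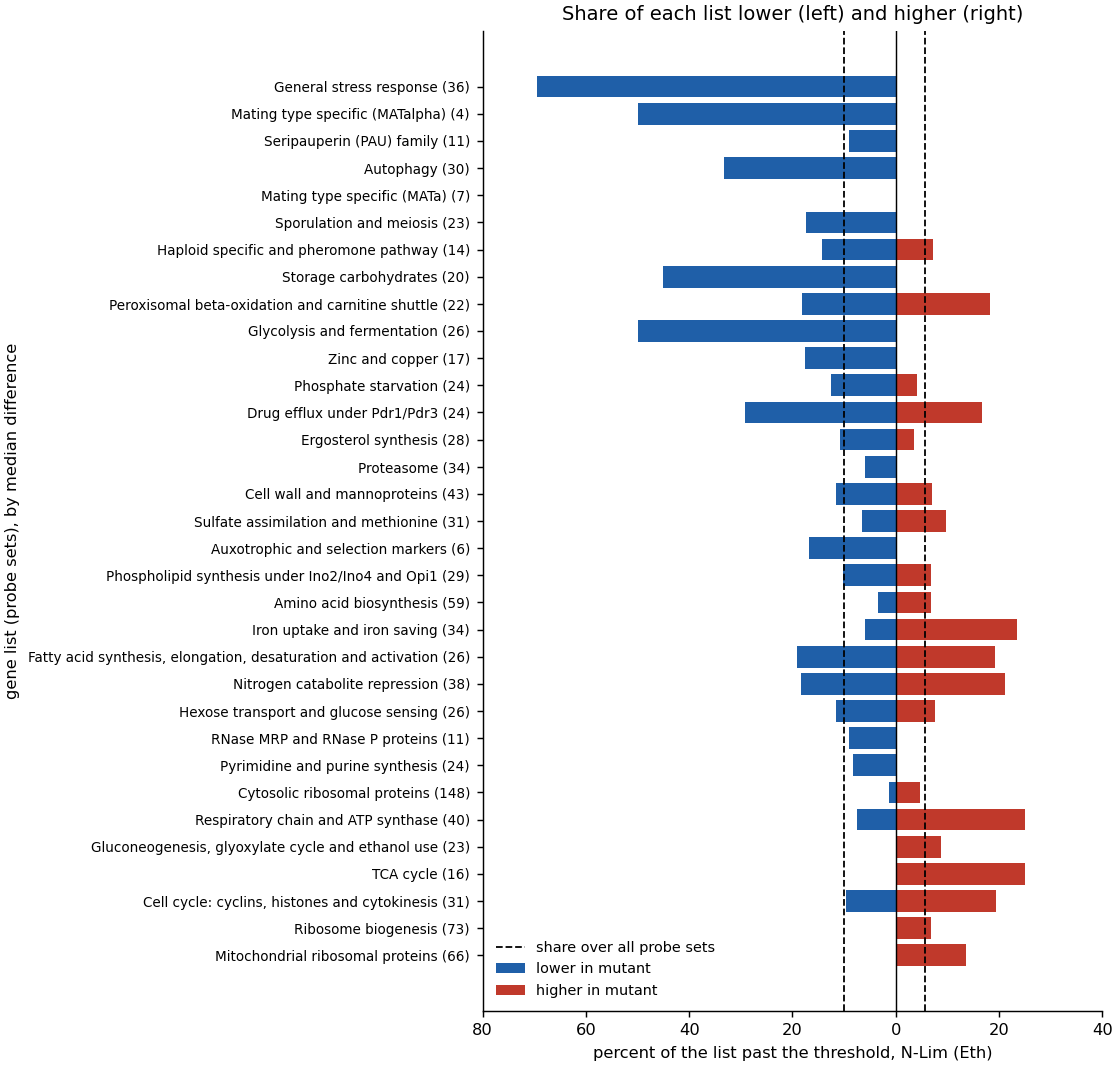
Percent of the probe sets of each gene list that were lower (bars to the left) and higher (bars to the right) in the mutant, sorted by the median difference, with dashed lines at the shares over all probe sets, 10.1% lower and 5.65% higher. The stress list reaches 69.4% lower, and in the respiratory chain and TCA cycle lists 10 of 40 and 4 of 16 genes were higher.

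Genes that can identify a strain were examined next. None of the 7 MATa-specific genes differed past the threshold. Of 4 MATalpha-specific genes MF(ALPHA)1, the pheromone precursor, had 10892 and 11113 in the mutant and 13591 and 13476 in the reference strain (-0.30, adjusted p = 0.0037), and STE3, the receptor for a-factor, had -0.44 (adjusted p = 0.049), a call that held in 5 of 12 alternatives. It was lost under quantile normalization, median centring, the compared arrays alone and the replicate block, and without mutant replicate 1, mutant replicate 2 or reference replicate 1. MF(ALPHA)2 varied between replicates, with 1658 and 711 in the mutant and 661 and 1733 in the reference strain. Among 6 marker genes URA3 alone differed. It had 8736 and 8843 in the mutant and 14110 and 14057 in the reference strain (-0.68 ± 0.04, adjusted p = 5.4e-06), and its strain difference was -0.68, -0.66 and -0.60 in Eth-Lim, N-Lim (Glu) and Glu-Lim.

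A stretch of neighbouring genes also differed. SNM1, a subunit of RNase MRP, had 2040 and 2004 in the mutant and 5453 and 5064 in the reference strain (-1.38 ± 0.08, adjusted p = 1.6e-06), while the other 10 genes of RNase MRP and RNase P did not differ past the threshold. In the gene order of the RefSeq R64 assembly SNF1 lies next to SNM1, and YDR476C beyond SNF1. SNF1, the kinase that releases glucose repression, was named after its values were seen. It had 8329 and 7754 in the mutant and 12699 and 11746 in the reference strain (-0.60, adjusted p = 0.00014). YDR476C had 5702 and 5795 in the mutant and 3534 and 3759 in the reference strain (0.66, adjusted p = 0.0002). The outer neighbours JIP4 and PEX29 gave -0.05 and -0.14, neither past the threshold. SNM1 and SNF1 were lower in all 4 conditions.

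The strain difference was set beside that in the other conditions. The mutant differed from the reference strain at 1417 probe sets (24.8%) in Eth-Lim, 1206 (21.1%) in N-Lim (Glu) and 1041 (18.2%) in Glu-Lim. These comparisons share no arrays, but they share 1 estimate of the spread. Of all probe sets 12.2%, 9.99% and 9.41% were higher in the mutant in these conditions and 12.6%, 11.1% and 8.8% were lower. Of the 323 probe sets higher in N-Lim (Eth), 131 (40.6%) were also higher in Eth-Lim, 151 (46.7%) in N-Lim (Glu) and 34 (10.5%) in Glu-Lim. They made up 18.7%, 26.4% and 6.32% of the probe sets higher there. Of the 579 lower, 287 were lower in Eth-Lim too, 278 in N-Lim (Glu) and 57 (9.84%) in Glu-Lim, where 718, 635 and 503 were lower in all. In Glu-Lim more of them had the opposite call, 170 of the 579 and 61 of the 323. The stress list had 14 genes higher and 3 lower in Glu-Lim, against 25 lower in N-Lim (Eth), 21 in Eth-Lim and 27 in N-Lim (Glu).

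Few genes passed the threshold in the same direction in every condition, and the sizes of their differences could still be unequal, as for INO1 with -0.76 in N-Lim (Eth), -0.35 in Eth-Lim and -1.40 in N-Lim (Glu). In all 4 conditions 8 were higher, namely HFA1, CLN3, CPS1, EXO1, RPL9A, SAC1, SRO9 and YHR020W. Another 13 probe sets were lower in all of them, ACC1, INO1, SNM1, SNF1, URA3, ARG1, DIE2, HSP30, PPT2, SAW1, SUC2, SWT1 and 1 without a gene symbol. Those not described above were named after their values were seen. CPS1, a vacuolar carboxypeptidase, and SUC2, invertase, are examples with small differences in N-Lim (Eth), at 0.39 and -0.25.

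Whether the strain difference itself changed was tested as the difference between the 2 strain differences. Against Eth-Lim 356 probe sets (6.23%) had another strain difference in N-Lim (Eth), with 134 (2.34%) more positive and 222 (3.88%) more negative. FAT3 changed sign. It was higher in the mutant in N-Lim (Eth) but had 1450 and 1618 in the mutant and 7275 and 6605 in the reference strain in Eth-Lim, so that the strain differences of 0.94 and -2.18 were apart by 3.12 ± 0.10 (adjusted p = 1.2e-07). ANS1 had no strain difference in Eth-Lim, with 5267 and 5104 in the mutant and 5059 and 5370 in the reference strain, and was apart by -3.16 ± 0.11 (adjusted p = 1.9e-07). In N-Lim (Glu) ANS1 was low in the mutant again, at 323 and 375 against 4404 and 4785 in the reference strain.

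Genes of fatty acid use were on the positive side. In the beta-oxidation list 8 of 22 genes had a more positive strain difference in N-Lim (Eth) than in Eth-Lim and none a more negative one. POX1, the acyl-CoA oxidase, had a strain difference of 0.13 in N-Lim (Eth) and -0.98 in Eth-Lim, FOX2, the multifunctional enzyme, 0.10 and -0.83, and PXA1 0.26 and -0.72. FAA1 had 0.41 and -0.57, apart by 0.98 ± 0.05 (adjusted p = 2e-06). In Eth-Lim itself 13 of the 22 genes were lower in the mutant. Of the genes with a more negative strain difference, SPS100 was apart by -1.54 ± 0.07 and YDL218W by -1.58 ± 0.07 (adjusted p = 1.4e-06 each), PDC6 by -1.34, SSA3 by -1.23 and THI4 by -1.26. Of the 36 stress genes 11 had a more negative strain difference and 1 a more positive one. In Eth-Lim itself 21 of the 36 were lower in the mutant and 1 was higher. Of 73 ribosome biogenesis genes 17 had a more negative strain difference. The mutant had 5 of the 73 higher in N-Lim (Eth) and 45 in Eth-Lim.

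Against N-Lim (Glu) 327 probe sets (5.72%) had another strain difference, 166 (2.9%) more positive and 161 (2.82%) more negative. JLP1 changed sign. It was low in the mutant in N-Lim (Eth) but had 2084 and 2349 in the mutant and 1201 and 1199 in the reference strain in N-Lim (Glu), apart by -3.13 ± 0.13 (adjusted p = 6.3e-07). TIS11 (apart by -1.54) and PRM5 (-1.38) likewise were lower in N-Lim (Eth) and higher in N-Lim (Glu). HO changed sign the other way, with 1297 and 1487 in the mutant and 2787 and 3499 in the reference strain in N-Lim (Glu), apart by 1.98 ± 0.16 (adjusted p = 8e-05).

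Genes of ethanol use and the TCA cycle were on the positive side here. In the gluconeogenesis and ethanol list 9 of 23 genes had a more positive strain difference in N-Lim (Eth) and none a more negative one. In N-Lim (Glu) 10 of the 23 genes were lower in the mutant. MDH2 had strain differences of 0.13 in N-Lim (Eth) and -1.07 in N-Lim (Glu), where its intensities were 4080 and 4124 in the mutant and 8565 and 8677 in the reference strain, apart by 1.20 ± 0.05 (adjusted p = 6.3e-07). The TCA cycle list had 6 of 16 more positive, with CIT3 apart by 1.05. PDH1, a methylcitrate pathway enzyme, was apart by 1.27, POX1 by 1.66, SPG4, a gene of stationary phase, by 1.53 and REG2, a phosphatase subunit, by 1.71. For REG2 and PDH1 the strain difference in N-Lim (Eth) did not pass the threshold, at 0.13 and 0.20. In the stress list 5 of 36 genes were more negative and 1 was more positive than in N-Lim (Glu), and in that condition 27 of its genes were lower in the mutant. Mitochondrial ribosomal protein genes had 6 of 66 more positive, with 13 lower in N-Lim (Glu).

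**Figure D5:**
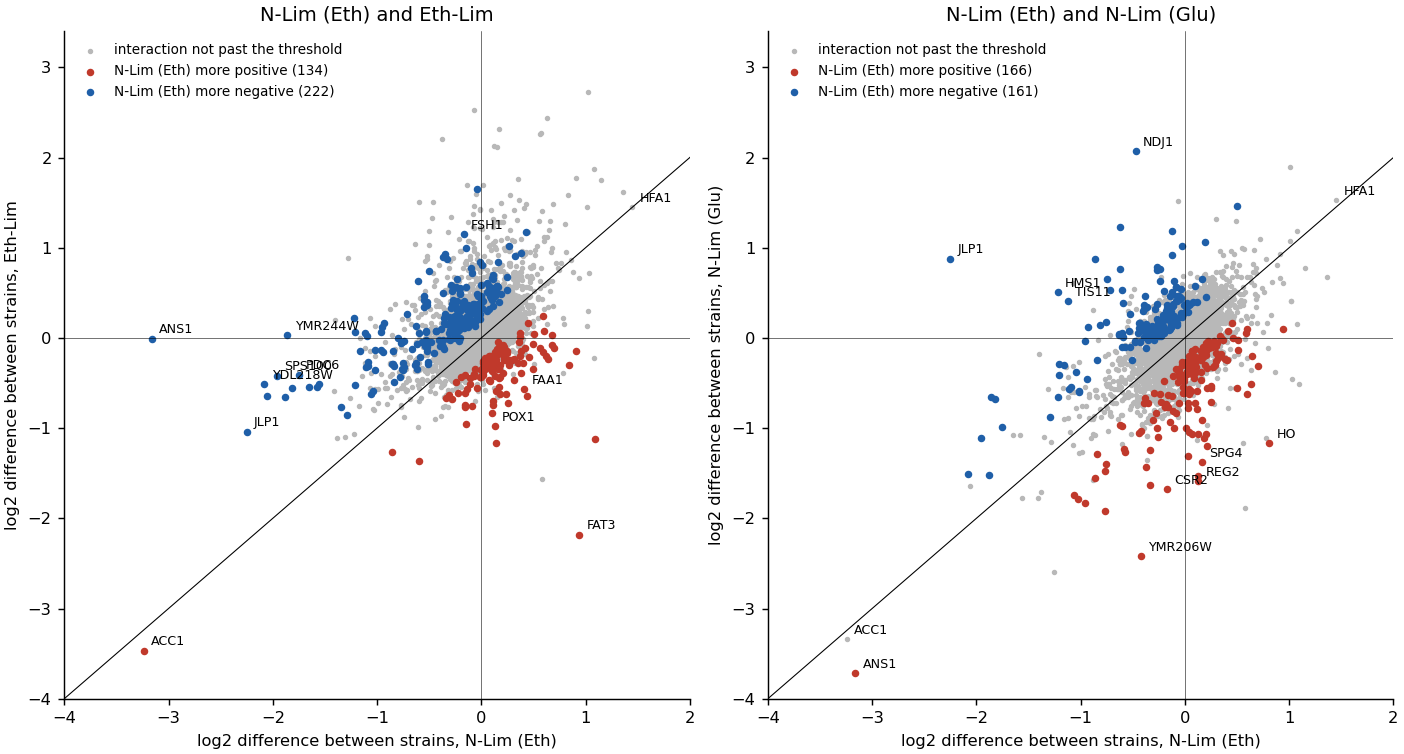
Log2 difference between the strains in Eth-Lim (left panel, y) and N-Lim (Glu) (right panel, y) against that in N-Lim (Eth) (x), 1 point per probe set, with the line of equal difference and with probe sets in colour where the 2 differences differed past the threshold (134 and 222 left, 166 and 161 right). FAT3 at 0.94 and -2.18 and ANS1 at -3.16 and -0.01 stand off the line on the left, and JLP1 and HO on the right, while ACC1 and HFA1 lie near it in both panels, with ACC1 apart by 0.23 on the left (adjusted p = 0.033).

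A stricter set was past the threshold in N-Lim (Eth) and further in its direction than in both Eth-Lim and N-Lim (Glu). It held 22 higher and 43 lower probe sets. CIT3 (0.50), FAA1 (0.41), FAT3 (0.94), PXA1 (0.26), VHT1 (0.60), TPO1 (0.45), SDD1 (0.70), YIG1 (0.64) and SPG4 (0.16) were among the higher ones. Genes that fell in this way were JLP1, YDL218W, SPS100, YMR244W, THI4, PDC6, CTT1, HMS1, GTO3, SHH4, CRR1, TIS11, BTN2, SPI1, PIR3, TDH1, SSA3, COX5B and PAU24, among others. Glu-Lim was not part of this rule. There TIS11 had a strain difference of -1.15, beside -1.12 in N-Lim (Eth), whereas CTT1 and SPS100 were higher in the mutant, at 1.16 and 1.33. PIR3, a cell wall protein, was apart by -0.84 from Eth-Lim and by -0.94 from N-Lim (Glu), with strain differences of -0.13 and -0.03 there. SHH4 had -1.21 in N-Lim (Eth), and -0.52 and -0.41 in the other 2 conditions.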

How the data were processed

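Total RNA of steady-state chemostat samples was measured on Affymetrix yeast arrays. The deposited values were intensities on a linear scale, 1 per probe set, normalized by the authors with GCRMA per the labels, while the sources used here give neither its version nor the step to the linear scale. The lowest intensity was 1, which 5 values had. The intensities were converted to log2 with no offset. A linear model with 8 group means was fitted to 16 arrays with limma 3.58.1 in R 4.3.3 (8 residual degrees of freedom, eBayes with 2.01 prior degrees of freedom), and 6 tests were taken from it: the strain difference in N-Lim (Eth) and in each of the other 3 conditions, and the difference of that in N-Lim (Eth) from those in Eth-Lim and N-Lim (Glu). Tests were two-sided, with Benjamini-Hochberg adjustment over 5716 probe sets and a threshold of 0.05. The script was tested on simulated data. The arrays limit the precision by their number, 2 in each group, and no counting depth applies.

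The members and gene lists were chosen with earlier results of these data known. Symbols came from the platform annotation, updated through RefSeq R64 for 12 probe sets. 132 probe sets can match several transcripts. Lists were described by counts and medians without a set test. Named genes were the 15 largest rises and 30 largest falls past the threshold with arrays that did not overlap, up to 5 leading members of each list, all members of the fatty acid, phospholipid, mating type and marker lists, and the 10 extremes in each direction of both further tests. Others are marked as named after their values were seen. A planned display of promoter sequences was not done, as no sequences were used here.

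Alternatives were quantile normalization, median centring, the compared arrays alone, leaving out the dimmest 25% of probe sets or those that match several transcripts, an offset of 16, an intensity trend, a replicate block, and leaving out each array. The replicate numbers do not pair the strains. The correlation of replicate differences between strains was -0.231 in N-Lim (Eth) and between -0.0169 and 0.0206 in the other conditions. In N-Lim (Eth) mutant replicate 1 thus tended weakly to deviate as reference replicate 2 did, and the cause was not tested.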

Additional observations from a re-analysis of the deposited data

Results flagged for a closer look

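The strain difference in N-Lim (Eth) was not that of the other conditions at 356 probe sets against Eth-Lim and at 327 against N-Lim (Glu), by the test of the difference between the strain differences (limma, Benjamini-Hochberg adjusted p under 0.05). The 10 named genes at each end are given here as that difference on the log2 scale.

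Against Eth-Lim, the strain difference in N-Lim (Eth) was more negative for ANS1 (-3.16), YMR244W (-1.89), YFL012W (-1.69), YDL218W (-1.58), SPS100 (-1.54), HMS1 (-1.44), SHH3 (-1.42), PDC6 (-1.34), FSH1 (-1.32) and HFM1 (-1.28). It was more positive for FAT3 (3.12), SPO74 (2.21), HPF1 (1.13), POX1 (1.11), DCI1 (1.08), PXA1 (0.98), FAA1 (0.98), FOX2 (0.94), YIG1 (0.87) and YMR001C-A (0.86). FSH1, a putative hydrolase, differed mainly in Eth-Lim, with 3252 and 3571 in the mutant and 3839 and 3828 in the reference strain in N-Lim (Eth), but with 4155 and 4677 in the mutant and 1881 and 2097 in the reference strain in Eth-Lim. SPO74 was dim, at 71.4 and 50.5 in the mutant and 27.6 and 28.8 in the reference strain in N-Lim (Eth).

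Against N-Lim (Glu), it was more negative for JLP1 (-3.13), NDJ1 (-2.54), SRD1 (-1.85), YHR022C (-1.73), HMS1 (-1.73), TIS11 (-1.54), RNP1 (-1.40), PRM5 (-1.38), YCR099C (-1.29) and YMR244W (-1.21). It was more positive for YMR206W (2.00), HO (1.98), REG2 (1.71), POX1 (1.66), SPG4 (1.53), CSR2 (1.51), MAL32 (1.41), HXT4 (1.34), SEO1 (1.29) and PDH1 (1.27). HXT4, a hexose transporter, had 1422 and 1263 in the mutant and 1295 and 1327 in the reference strain in N-Lim (Eth), but 4531 and 4380 in the mutant and 10852 and 11233 in the reference strain in N-Lim (Glu). YMR206W, which neighbours HFA1, had 385 and 414 in the mutant and 2321 and 1979 in the reference strain in N-Lim (Glu). NDJ1 was dim and uneven there, at 195 and 211 in the mutant and 25.2 and 92.2 in the reference strain. Its value of -2.54 had an SE of 0.63 (adjusted p = 0.044). RNP1 was dim too, at 106 and 73 in the mutant and 182 and 120 in the reference strain in N-Lim (Eth).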

How the results depend on the processing

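Every count in N-Lim (Eth) rests on 2 arrays a strain, and much of its sensitivity on the spread shared over 16 arrays. Of 171 named probe sets past the threshold, 58 stayed past it in every setting that held them (15 higher and 43 lower), and none of the 171 changed direction. A fit on the compared arrays alone gave 147 calls in place of 902 (36 higher, 111 lower), 12 stress genes lower, and 128 and 150 calls in the tests against Eth-Lim and N-Lim (Glu), and 110 of the 171 lost their call. Higher probe sets numbered 540 after quantile normalization and 529 after median centring. Probe sets beyond 1 numbered 1 higher and 18 lower without the dimmest 25%, and 1 higher with the offset. Without 1 array the calls ranged from 365 (mutant replicate 2) to 722 (reference replicate 2), with 459 without mutant replicate 1 and 410 without reference replicate 1, higher ones from 89 to 209, lower ones from 276 to 513, those beyond 1 from 1 (reference replicate 1) to 9 (reference replicate 2) higher and from 30 to 45 lower, the stress genes from 20 to 24, and the tests against Eth-Lim and N-Lim (Glu) from 145 to 385 and from 166 to 275. The test against Eth-Lim made 158 calls without mutant Eth-Lim replicate 2, 145 without mutant N-Lim (Eth) replicate 2, 182 and 167 without reference Eth-Lim replicates 1 and 2, and 165 without reference N-Lim (Eth) replicate 1. That against N-Lim (Glu) made 166 and 178 without mutant N-Lim (Eth) replicates 1 and 2, 205 and 193 without mutant N-Lim (Glu) replicates 1 and 2, and 187 without reference N-Lim (Eth) replicate 1. With the replicate block 215 were higher, 625 differed in all, and the further tests made 158 and 171 calls. A crossed pairing set mutant replicate 1 with reference replicate 2, and mutant replicate 2 with reference replicate 1, in N-Lim (Eth) only. It was chosen after seeing the data and gave 657 calls. The causes were not tested.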
